A study of Mus musculus with 18 samples.

Results

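The MHC class I and peptide loading genes examined here were 10 listed symbols, H2-K1, H2-D1, B2m, Tap1, Tap2, Tapbp, Psmb8, Psmb9, Psmb10 and Nlrc5. They were found through their versioned Ensembl identifiers in 2 bulk RNA-seq count tables, and each symbol matched 1 row in each table. They were thus 10 of the 54309 rows of the lymphocyte table and 10 of the 13759 rows of the macrophage table, and all 10 passed the filter on low counts in both. The tables came from female C57BL/6J mice, 8 to 10 weeks old when MC38 cells, a murine colon adenocarcinoma line, were injected into the spleen, with the livers taken at day 20. The lymphocyte table held 4 sorted populations with 3 libraries each. NK cells from metastasis-free liver (MFL NK) and NK cells from liver metastasis (LM NK) were both CD49a-CD49b+, the metastasis CD49a+ NK cells (LM CD49a+ NK) were CD49a+CD49b+, and the type 1 innate lymphoid cells of metastasis-free liver (MFL ILC1) were CD49a+CD49b-. All 4 were lineage-negative CD45+NKp46+ cells, and each library was sorted from a pool of 6 to 8 MFL or LM samples. The macrophage table held 2 populations of metastasis-associated macrophages (MAMs), F4/80hi and F4/80int, sorted as lineage-negative CD45+CD11b+ cells from LM, with 3 libraries each. The labels write the second of these as F4/80low. No group carried a deletion or a drug treatment. Metastases were digested with enzymes at 37 degrees, whereas MFL tissue was only smashed and filtered, so the site of a lymphocyte and its dissociation cannot be told apart.

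MHC class I molecules show short peptides from inside the cell at the cell surface, where CD8+ T cells read them and where the inhibitory receptors of NK cells bind the molecules themselves. A heavy chain (in C57BL/6 mice H2-K1 or H2-D1) pairs with the light chain beta-2 microglobulin, encoded by B2m. Peptides are cut by the proteasome, pumped into the endoplasmic reticulum by the transporter made of Tap1 and Tap2, and loaded onto the heavy chain with the help of tapasin, encoded by Tapbp. Interferon gamma induces Psmb8, Psmb9 and Psmb10, the catalytic subunits that replace Psmb5, Psmb6 and Psmb7 when a cell assembles immunoproteasomes. Nlrc5 is the transactivator of this gene group. It binds no DNA by itself and acts through a complex of factors assembled on conserved promoter boxes, among them the X2 box and the Y box.

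On GRCm39, 7 of the 10 genes lie on chromosome 17, within the mouse MHC. Tapbp (ENSMUSG00000024308, chr17:34134873-34148267), H2-K1 (ENSMUSG00000061232, chr17:34214987-34219321), Psmb9 (ENSMUSG00000096727, chr17:34400960-34406738), Tap1 (ENSMUSG00000037321, chr17:34405996-34416199), Psmb8 (ENSMUSG00000024338, chr17:34416690-34420428) and Tap2 (ENSMUSG00000024339, chr17:34422501-34435829) lie close to each other, with H2-D1 (ENSMUSG00000073411, chr17:35481691-35486475) further along. B2m is on chromosome 2 (ENSMUSG00000060802, chr2:121977957-121983594), and Nlrc5 (ENSMUSG00000074151, chr8:95160984-95253900) and Psmb10 (ENSMUSG00000031897, chr8:106662362-106665077) are on chromosome 8. Psmb9 and Tap1 lie on opposite strands, and their annotated 5′ ends overlap. Whether the counting used strand was not given in the sources used here, so reads in shared stretches cannot be assigned with certainty. H2-K1 and H2-D1 resemble each other and the nonclassical heavy chains closely enough to share reads, so their separate counts are uncertain, and the sum over all heavy chains in the tables is given beside them.

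RefSeq start windows on GRCm38.p6, which run from 250 bases before the annotated start to 50 after it, were at hand for 8 of the 10 genes, without Tap2 and Nlrc5. They were searched on both strands for 4 short motifs. The Y box core CCAAT was in the windows of 6 of these 8 genes and of 41.1% of all 27025 genes with a window. The X2 box core TGACG was in those of 5 of the 8 (H2-K1, H2-D1, B2m, Tap1 and Psmb9) and in 20.8% of all windows. The kappa B motif GGGANTCC was in the windows of H2-K1 and H2-D1, with matches on both strands that overlap each other, and in those of 4.82% of all genes. The interferon response core, GAAA followed by any 2 bases and GAAA, was in the B2m window alone among the 8 and in the windows of 3.99% of all genes. The upstream bases of 4 genes are shown because the heavy chains and the light chain carry TGACG and the reverse-strand Y box, ATTGG, with 20 bases between them. That arrangement was in the windows of 27 genes, or 0.0999% of all. This spacing was picked after the windows were read. It was in the windows of 3 of the 8 genes, and in that of 1 of the 12 nonclassical heavy chain genes with a window, H2-M3. Tap1 and Psmb9 face away from each other, and their windows share 275 of 300 bases. Their Y box and X2 box core matches are the same bases, counted once for each gene. The fourth sequence is therefore the stretch between their RefSeq starts. Capitals mark the motif matches, and each sequence ends at the base before the start.
H2-K1 (GRCm38.p6 chr17:34000334-34000583, minus strand): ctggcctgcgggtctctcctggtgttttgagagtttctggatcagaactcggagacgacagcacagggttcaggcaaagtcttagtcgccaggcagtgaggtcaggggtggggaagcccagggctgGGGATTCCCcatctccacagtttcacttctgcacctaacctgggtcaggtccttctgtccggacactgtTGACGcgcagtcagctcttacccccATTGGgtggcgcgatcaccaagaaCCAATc
H2-D1 (GRCm38.p6 chr17:35262844-35263093, plus strand): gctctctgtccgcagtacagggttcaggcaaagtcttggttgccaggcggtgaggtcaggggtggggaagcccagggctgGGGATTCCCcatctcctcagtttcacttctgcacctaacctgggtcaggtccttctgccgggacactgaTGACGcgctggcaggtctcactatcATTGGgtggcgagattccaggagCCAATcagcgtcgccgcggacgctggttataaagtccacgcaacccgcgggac
B2m (GRCm38.p6 chr2:122147437-122147686, plus strand): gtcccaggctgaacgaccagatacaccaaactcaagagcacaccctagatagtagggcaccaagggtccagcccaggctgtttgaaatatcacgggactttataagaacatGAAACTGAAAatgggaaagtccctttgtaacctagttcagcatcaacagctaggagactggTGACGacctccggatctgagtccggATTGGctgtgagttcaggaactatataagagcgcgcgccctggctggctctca
Tap1 (GRCm38.p6 chr17:34187331-34187555, plus strand): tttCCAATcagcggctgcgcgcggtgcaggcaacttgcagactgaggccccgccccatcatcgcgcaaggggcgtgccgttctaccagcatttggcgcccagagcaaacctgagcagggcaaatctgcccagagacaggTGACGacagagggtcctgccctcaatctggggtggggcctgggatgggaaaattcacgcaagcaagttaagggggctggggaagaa
In the B2m window, TGACG began 78 bases and ATTGG 53 bases before the start, and in the H2-D1 window they began 101 and 76 bases before it. A match of these letters is a description of the sequence and not a measured binding site.

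The lymphocyte libraries held 8795721 to 14386834 estimated counts, and the macrophage libraries 21278959 to 32267015. A member gene had between 98 counts (Psmb9) and 36451 counts (H2-K1) in a lymphocyte library and between 2016 (Nlrc5) and 93281 (H2-D1) in a macrophage library, so counting error was small beside the spread between libraries. Levels are CPM, counts scaled to library size by the trimmed mean of M-values, and per kilobase of the canonical transcript where genes are set against each other. The experiments used different library kits and were normalised apart, so no level is compared between them. In bulk samples, fewer cells of a type and less RNA per cell cannot be told apart. As a check of the labels, Adgre1, which encodes F4/80, averaged 958 CPM in F4/80hi and 146 CPM in F4/80int MAMs. The 6 listed ILC1 markers summed to 1699 to 1766 CPM in MFL ILC1, 186 to 279 CPM in LM CD49a+ NK and at most 68.6 CPM in the CD49a- NK libraries. The 6 T cell markers summed to 238 to 680 CPM in MFL ILC1 and to at most 35.7 CPM in the other lymphocyte libraries.

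In MAMs, all 10 genes were lower in the F4/80hi than in the F4/80int population, and in none of the 10 did the libraries of the 2 populations overlap. 9 of the 10 passed the test (edgeR quasi-likelihood, Benjamini-Hochberg adjusted p under 0.1), all of them lower in F4/80hi. The exception was B2m. Differences were wide across the whole table, where 54.9% of the 13759 genes passed, 27.1% as lower in F4/80hi, and 28.6% had all F4/80hi libraries below all F4/80int libraries. The median difference over the 10 genes was -0.59 on the log2 scale, beside 0.01 over all genes. Nlrc5 had the largest difference and B2m the smallest.

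**Figure D1:**
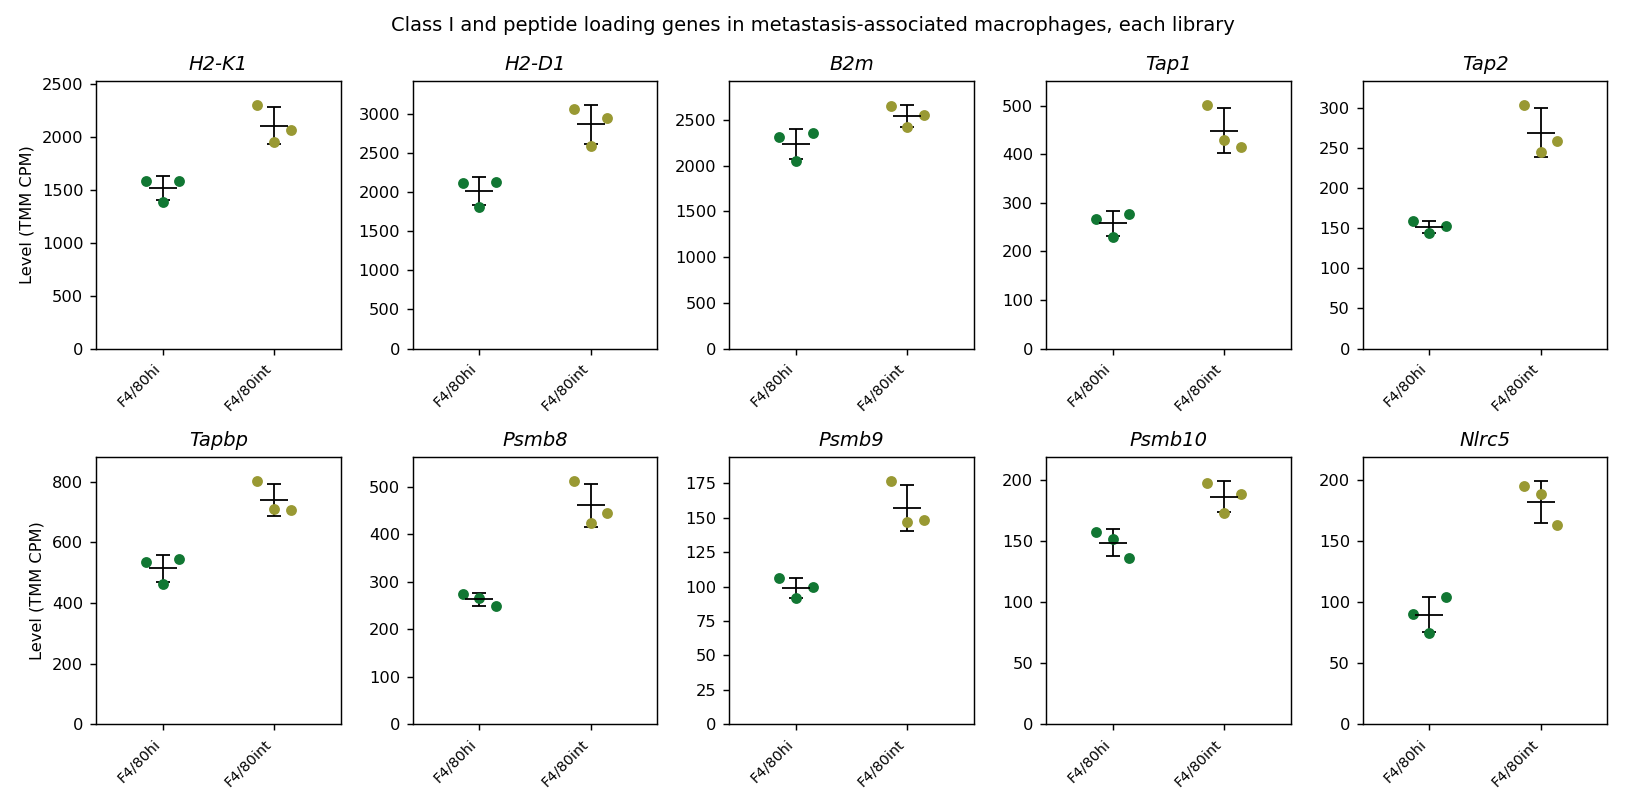
CPM of each of the 10 genes in the 3 F4/80hi and the 3 F4/80int libraries, 1 point per library with the group mean, with bars of 1 SD, on linear axes from 0. For every gene the F4/80hi points lie below the F4/80int points, and relative to its level the difference is largest for Nlrc5 (2.03-fold) and smallest for B2m.

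Of the heavy chains, H2-K1 stood at 1581, 1380 and 1576 CPM in the F4/80hi libraries and at 2294, 1953 and 2061 CPM in the F4/80int libraries. This is a log2 difference of -0.48 (SE 0.106, edgeR adjusted p = 0.00653). H2-D1, the other classical heavy chain, stood at 2112, 1806 and 2132 CPM in F4/80hi and at 3063, 2592 and 2943 CPM in F4/80int, a log2 difference of -0.51 (SE 0.113, edgeR adjusted p = 0.00638). In both genes the second F4/80hi library was the lowest of the 6, and it was also the lowest for B2m, Tap1, Tap2, Tapbp, Psmb9 and Nlrc5. Summed over all heavy chains, classical and nonclassical, the levels were 3828 to 4517 CPM in F4/80hi and 5857 to 7013 CPM in F4/80int, with a log2 difference of -0.59 (SE 0.117, edgeR adjusted p = 0.00364).

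The light chain differed least. B2m stood at 2310, 2046 and 2359 CPM in F4/80hi and at 2657, 2426 and 2552 CPM in F4/80int. Its log2 difference of -0.19 (SE 0.0993) did not pass in the edgeR fit (adjusted p = 0.161) and passed with DESeq2 (-0.20, adjusted p = 0.0793). Per kilobase, B2m had the highest level of the 10 genes in both populations, 2061 ± 155 CPM per kilobase in F4/80hi and 2343 ± 107 in F4/80int (SD, n = 3). H2-D1 and H2-K1 followed, at 953 ± 86.2 and 934 ± 70.9 CPM per kilobase in F4/80hi and at 1354 ± 116 and 1299 ± 108 in F4/80int, and within each population these 2 genes did not differ beyond their spread. The lowest level per kilobase in both populations was that of Nlrc5, at 11.9 ± 1.91 and 24.1 ± 2.26.

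Both chains of the peptide transporter fell by similar amounts. Tap1 stood at 266, 229 and 278 CPM in F4/80hi and at 501, 429 and 416 CPM in F4/80int, a log2 difference of -0.80 (SE 0.111, edgeR adjusted p = 0.000606). Tap2 stood at 159, 144 and 153 CPM in F4/80hi and at 303, 246 and 259 CPM in F4/80int, a log2 difference of -0.83 (SE 0.10, edgeR adjusted p = 0.000288). For either gene the highest F4/80hi library stayed well below the lowest F4/80int library. Tapbp, whose product tapasin bridges the transporter and the heavy chain, stood at 534, 463 and 546 CPM in F4/80hi and at 802, 711 and 707 CPM in F4/80int, a smaller log2 difference of -0.52 (SE 0.102, edgeR adjusted p = 0.00335).

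All 3 immunoproteasome subunits were lower in F4/80hi. Psmb8 stood at 274, 265 and 248 CPM there and at 512, 424 and 445 CPM in F4/80int, a log2 difference of -0.81 (SE 0.0984, edgeR adjusted p = 0.000288). Psmb9 stood at 106, 91.8 and 99.7 CPM against 177, 147 and 149 CPM, a log2 difference of -0.66 (SE 0.102, edgeR adjusted p = 0.00101). Psmb10 differed less, with 158, 152 and 136 CPM against 198, 173 and 189 CPM, a log2 difference of -0.33 (SE 0.0917, edgeR adjusted p = 0.0183). The constitutive subunits that these 3 replace did not pass the test. Psmb5 had a log2 difference of -0.14 (edgeR adjusted p = 0.281), Psmb6 one of 0.14 (adjusted p = 0.331) and Psmb7 one of 0.09 (adjusted p = 0.518).

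The share of immunoproteasome subunits in the CPM per kilobase of all 6 catalytic subunits puts these values together. It was 57.7%, 56.0% and 59.8% in the F4/80hi libraries and 69.9%, 68.9% and 67.6% in the F4/80int libraries. The means were 57.8% ± 1.93 and 68.8% ± 1.15 (SD, n = 3), and the libraries did not overlap. This is a share of transcripts and not of assembled proteasomes, and with 3 libraries against 3 an exact test cannot give a p below 0.1.

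Nlrc5, the transactivator, had the largest difference of the 10. It stood at 90.8, 75.0 and 104 CPM in F4/80hi and at 195, 189 and 163 CPM in F4/80int, a log2 difference of -1.02 (SE 0.131, edgeR adjusted p = 0.000386), or 2.03-fold lower in F4/80hi. The directions did not depend on any 1 library: over the 6 fits that left out a library in turn, the Nlrc5 difference ran from -1.14 to -0.90 and that of B2m, the smallest, from -0.23 to -0.12.

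The other genes of the pathway were taken from a list of 62 that did not hold the 10 members. Of the 56 tested in MAMs, 42 were lower and 14 higher in F4/80hi, with a median log2 difference of -0.16. 24 passed as lower and 9 as higher, beside 27.1% and 27.8% of all genes. The subgroups of the list went different ways. All 10 nonclassical heavy chains tested (the H2-Q, H2-T and H2-M genes) were lower, and 9 of them passed. H2-M2 had the largest difference (-3.42, SE 0.664, edgeR adjusted p = 0.00334), on 11, 10 and 4 counts in F4/80hi against 179, 91 and 28 counts in F4/80int. H2-Q6 stood at 71.2, 43.3 and 48.5 CPM against 239, 167 and 163 CPM, a log2 difference of -1.81 (SE 0.216, edgeR adjusted p = 0.000263), and H2-Q10 had one of -1.38 (SE 0.331, adjusted p = 0.0092).

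The class I-like molecules, which also pair with the light chain but serve other ligands, mostly went the opposite way, with 3 of 4 higher in F4/80hi. Mr1, which presents microbial vitamin B metabolites, was higher by 1.36 (SE 0.215), Fcgrt, the neonatal Fc receptor heavy chain, by 0.76 (SE 0.217) and Hfe, a regulator of iron uptake, by 0.42 (SE 0.113) on the log2 scale. Cd1d1, which presents lipids to NKT cells, was lower (-3.14, SE 0.195). Of 5 further loading and trimming genes, 3 were higher and 2 lower. Of those that passed, Pdia3 and Canx, folding factors of the endoplasmic reticulum, were higher by 0.34 and 0.30. Tapbpl, a tapasin relative that edits peptides, passed as lower (-0.81, SE 0.132).

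All 4 activator and assembly genes were lower in F4/80hi, and 3 of them passed. Psme1, a chain of the PA28 activator, stood at 226, 204 and 197 CPM in F4/80hi and at 394, 312 and 340 CPM in F4/80int, a log2 difference of -0.74 (SE 0.108, edgeR adjusted p = 0.000809). Its partner Psme2 had one of -0.70, and Pomp, the assembly chaperone, one of -0.28 (SE 0.0525). Of 11 other subunits of the 20S core, 10 were lower and 1 higher. 2 passed as lower (Psma7 by -0.42 and Psma4 by -0.25), 1 passed as higher (Psmb2, 0.17), and 8 did not pass. Among 5 peptidases, which trim or destroy peptides, Lap3 (1.04, SE 0.095), Blmh (0.54) and Tpp2 (0.30) were higher in F4/80hi, and Lnpep (-0.39) was lower.

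Of 10 regulators of class I transcription other than Nlrc5, 9 were lower and 1 higher in F4/80hi, with a median log2 difference of -0.13. 4 passed, all of them lower, and 6 did not pass, beside the 27.1% of all genes that passed as lower. Among those that passed were Irf2, with a log2 difference of -0.83 (SE 0.086), and Rfx5, part of the complex on the X box, with one of -0.65 (SE 0.14). Of 4 genes for the interferon gamma receptor and its kinases, 3 were lower. Jak2 stood at 53.3, 46.9 and 52.3 CPM in F4/80hi and at 393, 338 and 266 CPM in F4/80int, a log2 difference of -2.71 (SE 0.149, edgeR adjusted p = 5.34e-06). Ifngr1, the ligand-binding receptor chain, had one of -1.04 (SE 0.126) and Jak1 one of -0.32 (SE 0.112).

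Of 16 interferon gamma-inducible genes, 13 were lower and 3 higher in F4/80hi, with a median of -0.50. 10 passed as lower and 2 as higher. Cd274, which encodes PD-L1, had a log2 difference of -2.14, and the guanylate-binding proteins Gbp4 and Gbp2 had differences of -1.16 and -1.10, while Iigp1 (1.38) and Gbp6 (0.75) were higher. All 5 MHC class II genes were lower, with Ciita, their transactivator and a relative of Nlrc5, at 64.6, 32.2 and 59.1 CPM against 556, 635 and 399 CPM (-3.35, SE 0.283). H2-Ab1 had a log2 difference of -2.87 and H2-Aa one of -2.71. The class II differences were thus several times as large as those of the class I members.

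Markers of other cells moved with these differences. The 6 dendritic cell markers summed to 10.1 to 16.2 CPM in F4/80hi and to 375 to 668 CPM in F4/80int, and no marker on the list was at 0 throughout either population. The 8 macrophage markers summed to 18213 to 23666 CPM in F4/80hi and to 9452 to 11854 CPM in F4/80int. The 2 of 5 tumour epithelium markers in the table summed to 8.30 to 11.8 CPM against 197 to 281 CPM, the 3 of 5 neutrophil markers to at most 0.54 CPM against 4.58 to 57.6 CPM, and the 10 genes known to rise during tissue dissociation to 4213 to 6255 CPM against 8211 to 11066 CPM. The part of any of these in the class I differences was not tested.

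In the lymphocytes, none of the 10 genes passed the edgeR test in any of the 5 population comparisons. The adjusted p-values of members ran from 0.151 to 1 in these comparisons. Libraries of 1 population differed more here than in MAMs, with median coefficients of variation over the 10 genes of 14.5% to 28.4%, compared with 7.55% and 8.96% in the 2 MAM populations. The standard errors of single log2 differences reached 0.56. A gene that did not pass is therefore not shown to be equal.

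**Figure D2:**
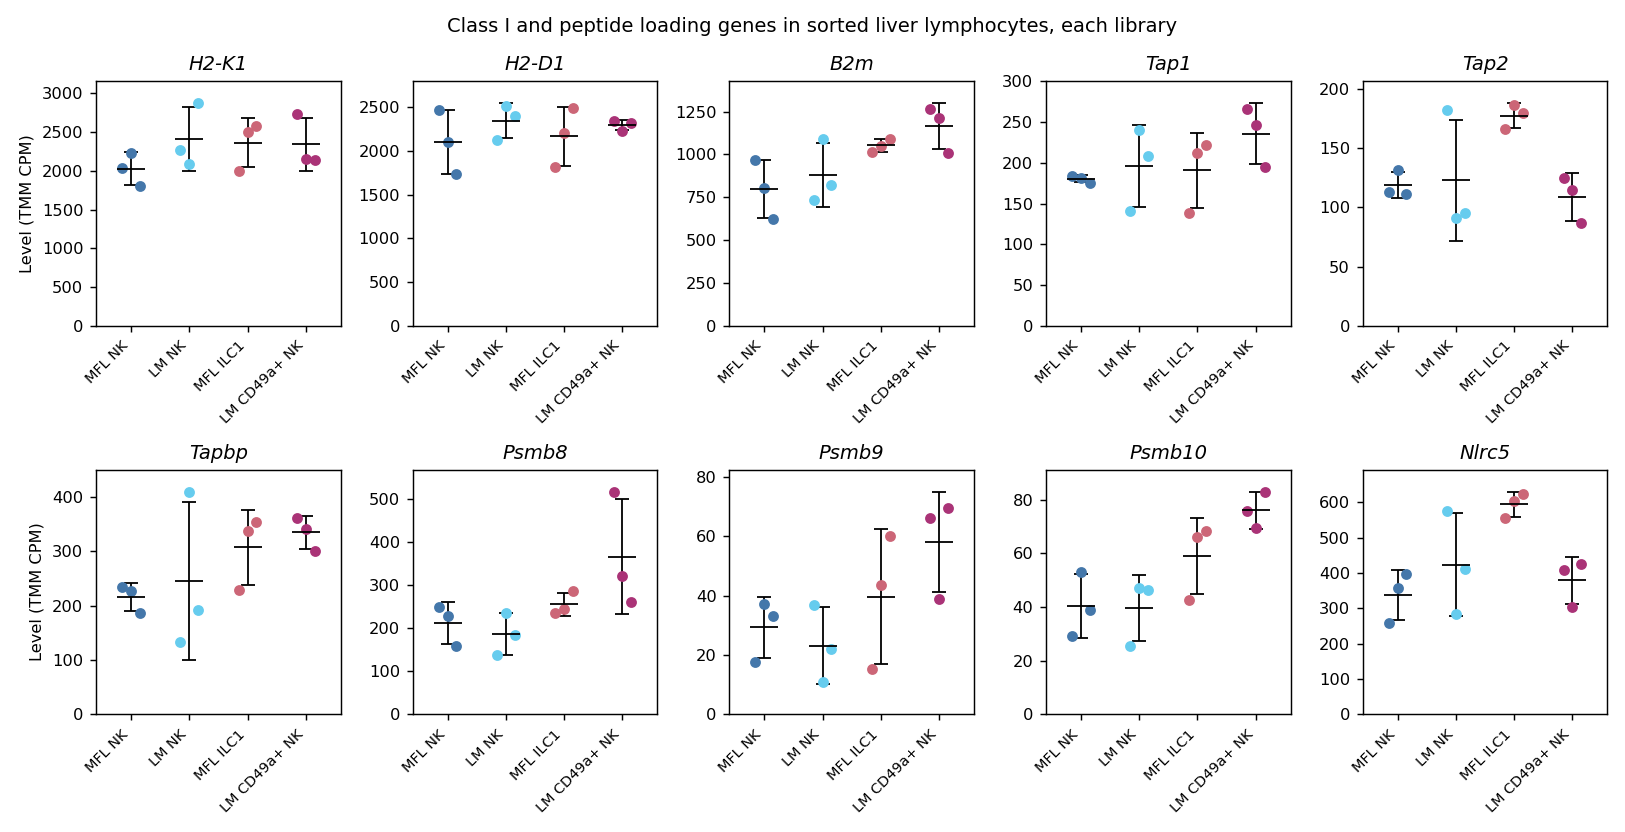
CPM of each of the 10 genes in the 12 lymphocyte libraries, 1 point per library with the population mean and bars of 1 SD, on linear axes from 0. H2-K1 and H2-D1 lie at similar levels in all 4 populations, Psmb8, Psmb9 and Psmb10 are highest on average in LM CD49a+ NK, and Nlrc5 and Tap2 are highest on average in MFL ILC1.

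The heavy chains stood at similar levels in all 4 populations. H2-K1 stood at 2041, 2229 and 1809 CPM in MFL NK, at 2264, 2092 and 2871 CPM in LM NK, at 2000, 2507 and 2577 CPM in MFL ILC1 and at 2738, 2150 and 2134 CPM in LM CD49a+ NK. H2-D1 stood at 2469, 2106 and 1734 CPM, at 2127, 2509 and 2405 CPM, at 1815, 2204 and 2488 CPM and at 2337, 2228 and 2318 CPM in the same order. The libraries of the 4 populations overlapped throughout for both genes. The population means of H2-D1 spanned 0.17 and those of H2-K1 0.24 on the log2 scale, the smallest ranges of the 10 genes. The sum over all heavy chains was 6014 to 7121 CPM in MFL NK, 7015 to 10170 CPM in LM NK, 6741 to 8309 CPM in MFL ILC1 and 7031 to 7949 CPM in LM CD49a+ NK, with no comparison passing (largest log2 difference 0.33, SE 0.235, edgeR adjusted p = 0.901, LM NK against MFL NK). Per kilobase, H2-K1 had the highest level of the 10 in each population (1252 ± 130 CPM per kilobase in MFL NK, SD, n = 3), followed by H2-D1 (993 ± 174) and B2m (736 ± 157). In LM CD49a+ NK, H2-D1 (1084 ± 27.4 CPM per kilobase) and B2m (1072 ± 124) did not differ beyond their spread.

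B2m stood at 966, 806 and 625 CPM in MFL NK, at 734, 1090 and 819 CPM in LM NK, at 1016, 1052 and 1092 CPM in MFL ILC1 and at 1267, 1213 and 1011 CPM in LM CD49a+ NK. Every MFL ILC1 and LM CD49a+ NK library lay above every MFL NK library. The log2 difference from MFL NK was 0.54 (SE 0.225, edgeR adjusted p = 0.445) in LM CD49a+ NK and 0.40 (SE 0.225, adjusted p = 0.826) in MFL ILC1. Both passed with limma-voom and quality weights, at 0.64 and 0.50.

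**Figure D3:**
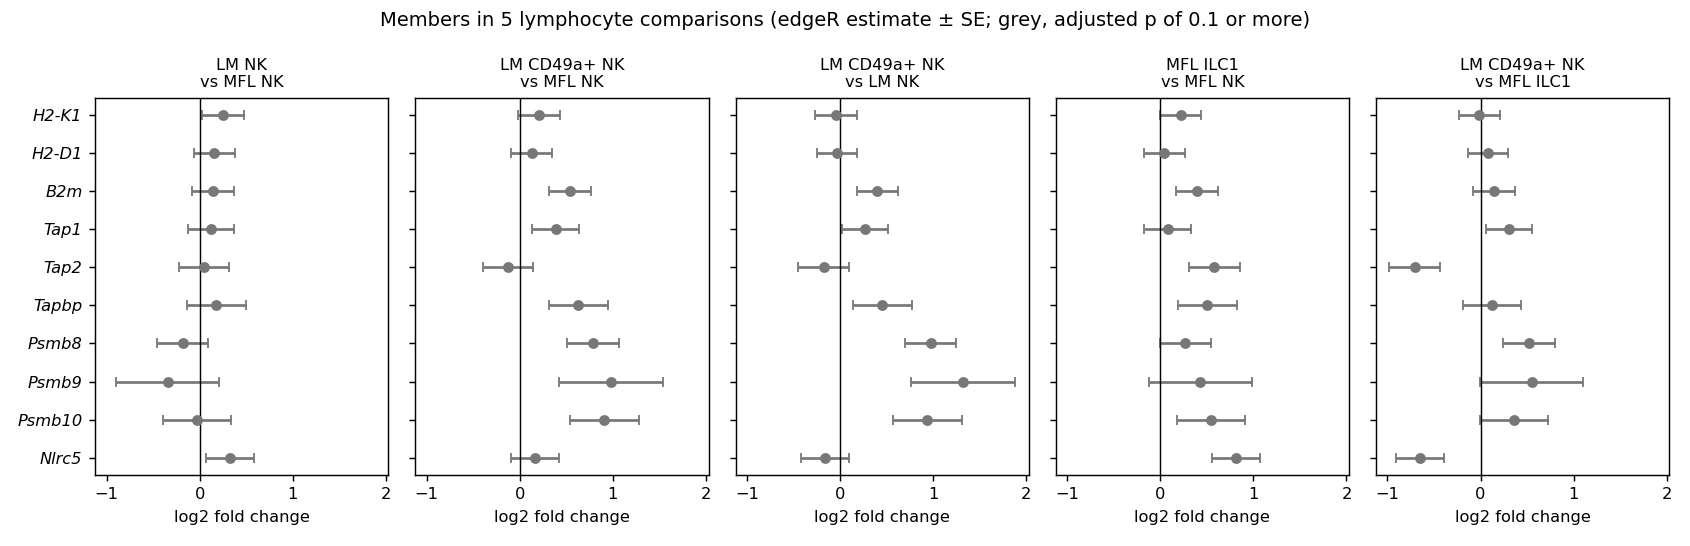
Log2 differences of the 10 genes in the 5 lymphocyte comparisons, 1 panel per comparison, with bars of 1 standard error. Most points in the comparisons with MFL NK lie above 0, and none passed the edgeR test.

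LM NK and MFL NK share the CD49a- gate and differ by site. 7 of the 10 genes were higher and 3 lower in LM NK, 0 passed, and in 0 of the 10 did the libraries separate, beside 0.0736% of all 13594 genes tested that passed and 16.2% that separated. 0 of the 10 had an unadjusted p under 0.05, beside 6.72% of all genes, and DESeq2 and limma-voom also called 0. The median log2 difference was 0.13, beside -0.09 over all genes. The largest was that of Psmb9 (-0.34, SE 0.553), followed by Nlrc5 (0.33, SE 0.256, edgeR adjusted p = 0.927). Within LM NK the libraries stood apart, with Tapbp at 133, 409 and 192 CPM and Nlrc5 at 576, 284 and 411 CPM. The LM NK dissociation list ran from 5078 to 10477 CPM, beside 3830 to 4743 CPM in MFL NK, and Hspa1a and Hspa1b, heat shock chaperones of that list, were higher in LM NK by 3.90 and 3.72 on the log2 scale. The dendritic cell list summed to 11.6 to 82.0 CPM in LM NK against 5.31 to 10.2 CPM in MFL NK. The hepatocyte list was lower in LM NK, at 0 to 4.46 CPM against 16.2 to 101 CPM. The part of these lists in the class I values was not tested. Of the 52 pathway genes tested, 0 passed with edgeR (4 at an unadjusted p under 0.05), 1 with DESeq2 and 2 with limma-voom. Of the 15 interferon gamma-inducible genes tested, 0 passed with any of the 3 tools, and 2 had an unadjusted p under 0.05 with edgeR.

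LM CD49a+ NK and MFL NK differ in both site and gate. 9 of the 10 genes were higher in LM CD49a+ NK, with a median log2 difference of 0.46, beside -0.04 over all genes. 0 passed with edgeR, beside 0.647% of all genes, and 3 had an unadjusted p under 0.05, beside 9.74% of all genes. DESeq2 called 0 of the 10 and limma-voom 1 (B2m). For 6 of the 10 (Tapbp, Psmb8, Psmb9, Psmb10, Tap1 and B2m) every LM CD49a+ NK library lay above every MFL NK library, which was the case for 7.06% of all genes. Psmb8 stood at 516, 322 and 261 CPM in LM CD49a+ NK and at 250, 228 and 158 CPM in MFL NK, a log2 difference of 0.79 (SE 0.277, unadjusted p = 0.0111 and adjusted p = 0.371 with edgeR). The first LM CD49a+ NK library was the highest, and the third lay only just above the highest MFL NK library. Psmb10 stood at 75.8, 69.3 and 82.9 CPM against 29.2, 53.1 and 39.1 CPM, a log2 difference of 0.91 (SE 0.367, edgeR adjusted p = 0.435).

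Psmb9 had the lowest counts of the 10, with 66.04, 38.7 and 69.3 CPM in LM CD49a+ NK against 17.8, 37.2 and 33.3 CPM in MFL NK and a log2 difference of 0.98 (SE 0.557, edgeR adjusted p = 0.648). Tapbp stood at 361, 342 and 301 CPM against 234, 227 and 187 CPM, a log2 difference of 0.63 (SE 0.317, adjusted p = 0.558). Tap1 stood at 266, 247 and 194 CPM against 184, 182 and 176 CPM, one of 0.39 (SE 0.250, adjusted p = 0.761). Of the transporter's chains, the second, Tap2, was the single member with a negative value, -0.13. Of the 15 interferon gamma-inducible genes tested, 13 were higher and 2 lower in LM CD49a+ NK. 2 passed with edgeR, both of them higher. Cd274 stood at 173, 68.9 and 164 CPM against 29.4, 37.3 and 31.2 CPM (2.05, SE 0.398, edgeR adjusted p = 0.0262), and Gbp6 had a log2 difference of 1.55 (SE 0.359, adjusted p = 0.0777). DESeq2 called 4 of these genes and limma-voom 5. Of the 52 pathway genes, 0 passed with edgeR (7 at an unadjusted p under 0.05), 1 with DESeq2 and 2 with limma-voom. The dissociation list ran from 5563 to 7972 CPM in LM CD49a+ NK, and Hspa1a and Hspa1b were higher than in MFL NK by 3.34 and 3.47 on the log2 scale. The tumour epithelium list summed to 23.8 to 51.5 CPM in LM CD49a+ NK against 0.29 to 2.53 CPM in MFL NK, all from Cdh1 and Epcam in LM CD49a+ NK, where Krt8, Krt18 and Krt19 were at 0. The liver endothelium list summed to 220 to 281 CPM against 85.7 to 142 CPM, in LM CD49a+ NK entirely from Pecam1, with the other 4 of its 5 genes at 0. The B cell list summed to 117 to 121 CPM against 30.4 to 73.1 CPM, nearly all from Ighm, with Cd79a and Cd79b at 0 in LM CD49a+ NK. The dendritic cell list summed to 14.3 to 47.8 CPM in LM CD49a+ NK against 5.31 to 10.2 CPM in MFL NK. The hepatocyte list was lower, at 0 to 13.1 CPM against 16.2 to 101 CPM. The part of tissue dissociation and of these markers in the class I values was not tested.

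LM CD49a+ NK and LM NK came from the same tissue and digestion. 6 of the 10 genes were higher and 4 lower in LM CD49a+ NK, with a median log2 difference of 0.33, beside 0.01 over all genes. 0 passed, beside 0.14% of all genes, and 3 had an unadjusted p under 0.05, beside 11.6% of all genes. Those 3 were the immunoproteasome subunits, and they were also the 3 whose libraries separated, which 5.72% of all genes did in this direction. Psmb8, at 138, 236 and 185 CPM in LM NK, was 0.97 higher in LM CD49a+ NK (SE 0.278, unadjusted p = 0.00272 and adjusted p = 0.280 with edgeR), and it passed with DESeq2 (0.96, adjusted p = 0.0599). Psmb10, at 25.6, 47.0 and 46.4 CPM in LM NK, was 0.94 higher (SE 0.368, edgeR adjusted p = 0.377). Psmb9, at 36.8, 10.9 and 21.98 CPM in LM NK, was 1.32 higher (SE 0.561, edgeR adjusted p = 0.401). The heavy chains differed by -0.04 (H2-K1) and -0.03 (H2-D1). The tumour epithelium and B cell lists, at 23.8 to 51.5 and 117 to 121 CPM in LM CD49a+ NK, were at 0 to 4.41 and 15.9 to 83.2 CPM in LM NK, and their part in these values was not tested. limma-voom called 0 of the 10. Of the 52 pathway genes, 0 passed with edgeR (8 at an unadjusted p under 0.05), 1 with DESeq2 and 0 with limma-voom, and of the 15 interferon gamma-inducible genes 0 passed with edgeR (5 at an unadjusted p under 0.05), 2 with DESeq2 and 0 with limma-voom.

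Within metastasis-free liver, all 10 genes were higher in MFL ILC1 than in MFL NK. The median log2 difference was 0.41, beside 0.01 over all genes. 0 passed in the edgeR fit of 12 libraries, beside 3.06% of all genes, and 2 had an unadjusted p under 0.05, beside 8.37% of all genes. In 3 (Nlrc5, Tap2 and B2m) the ILC1 libraries all lay above the NK libraries, as in 12.2% of all genes. Nlrc5 stood at 555, 602 and 624 CPM in MFL ILC1 and at 259, 357 and 396 CPM in MFL NK, a log2 difference of 0.82 (SE 0.257, unadjusted p = 0.00559 and adjusted p = 0.151 with edgeR). It passed with DESeq2 (0.85, adjusted p = 0.0462), without the filter on low counts (0.83, adjusted p = 0.0420), and when only the 6 libraries of these populations were fitted (0.80, adjusted p = 0.0233). It also passed without the first or without the second LM NK library, which are not part of this comparison. Tap2 stood at 166, 187 and 179 CPM against 113, 131 and 112 CPM, a log2 difference of 0.58 (SE 0.272, edgeR adjusted p = 0.579), and passed in the fit of the 6 libraries (0.57, adjusted p = 0.0518). With limma-voom and quality weights, 6 of the 10 passed (Tapbp, Tap2, Psmb10, B2m, H2-K1 and Nlrc5), while the calls over all genes rose from 416 to 2645.

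Among other genes of the pathway, the receptor side differed between MFL ILC1 and MFL NK. Ifngr1 stood at 386, 300 and 319 CPM in MFL ILC1 and at 1242, 852 and 841 CPM in MFL NK, a log2 difference of -1.55 (SE 0.286, edgeR adjusted p = 0.00396). Jak1 was also lower (-0.98, SE 0.213, adjusted p = 0.015), and Jak2 was higher (1.28, SE 0.237, adjusted p = 0.00411). These were the 3 of 52 pathway genes that passed. Of 15 interferon gamma-inducible genes, 11 were higher and 4 lower in MFL ILC1. 2 passed with edgeR, both of them higher. They were Gbp6 (158, 160 and 166 CPM against 34.9, 43.9 and 39.1 CPM, 2.04, SE 0.364, edgeR adjusted p = 0.00295) and Gbp4 (0.83, SE 0.214, adjusted p = 0.0489). DESeq2 called 6 of the 15 and limma-voom 10. The sums of some marker lists also differed between these populations. The 6 T cell markers were at 238 to 680 CPM in MFL ILC1 against 4.41 to 12.2 CPM in MFL NK. The 5 tumour epithelium markers summed to 59.3 to 95.2 CPM against 0.29 to 2.53 CPM, almost all from Cdh1 and Epcam, with Krt18 and Krt19 at 0 in MFL ILC1 and Krt8 at no more than 0.0732 CPM. The 5 B cell markers summed to 138 to 184 CPM against 30.4 to 73.1 CPM, nearly all from Ighm, with Ms4a1 and Cd79a at 0 in MFL ILC1. The part of these in the class I values was not tested.

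LM CD49a+ NK and MFL ILC1 share CD49a and differ in site and in CD49b. 7 of the 10 genes were higher and 3 lower in LM CD49a+ NK, with a median log2 difference of 0.13, beside -0.07 over all genes. 0 passed with edgeR, beside 3.58% of all genes, and 2 had an unadjusted p under 0.05, beside 14.1% of all genes. DESeq2 called 0 and limma-voom 1. In Nlrc5 and Tap2 every LM CD49a+ NK library lay below every MFL ILC1 library, and in Psmb10 every one lay above, where 23.2% of all genes separated one way or the other. Nlrc5, at 407, 304 and 425 CPM in LM CD49a+ NK, differed by -0.65 (SE 0.257, unadjusted p = 0.0216 and adjusted p = 0.254 with edgeR), and by -0.75 with limma-voom, where it passed (adjusted p = 0.0335). Tap2, at 125, 115 and 86.3 CPM, differed by -0.71 (SE 0.272, edgeR adjusted p = 0.237). Of the 52 pathway genes tested, 2 passed, a share near that of all genes. Ifngr1 (1.77, SE 0.288, edgeR adjusted p = 0.00181) and Jak1 (0.83, SE 0.212, adjusted p = 0.0481) were higher in LM CD49a+ NK. Of the 15 interferon gamma-inducible genes, 8 were higher and 7 lower in LM CD49a+ NK, and 3 passed. Of those that passed, Gbp3 was higher (1.67), and Irgm2 (-2.07) and Gbp4 (-0.77) were lower. In LM CD49a+ NK the T cell list summed to 5.18 to 35.7 CPM, against 238 to 680 CPM in MFL ILC1. Hepatocyte (0 to 13.1 against 31.3 to 72.9) and tumour epithelium lists (23.8 to 51.5 against 59.3 to 95.2) were also lower. So was the B cell list (117 to 121 against 138 to 184). Liver endothelium (220 to 281 against 122 to 140) and dendritic cell lists (14.3 to 47.8 against 0 to 5.59) were higher. The dissociation list summed to 5563 to 7972 CPM in LM CD49a+ NK and to 3433 to 5782 CPM in MFL ILC1. Of its 10 genes, 9 were higher and 1 lower in LM CD49a+ NK. The part of these lists in the class I values was not tested.

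The interaction asks whether the CD49a+ minus CD49a- difference was the same in metastasis (LM CD49a+ NK against LM NK) as in metastasis-free liver (MFL ILC1 against MFL NK). The CD49a+ populations of the sites are different cells, CD49b+ in metastasis and CD49b- in metastasis-free liver. In this contrast, site and cell type cannot be told apart. 0 of the 10 genes passed with edgeR, DESeq2 or limma-voom, beside 1.03% of all genes with edgeR, and 1 had an unadjusted p under 0.05, beside 8.7% of all genes. This was Nlrc5, with a difference of 0.82 for MFL ILC1 against MFL NK and of -0.16 for LM CD49a+ NK against LM NK. Its interaction was -0.98 (SE 0.363, unadjusted p = 0.0152 and adjusted p = 0.431 with edgeR). The other values over 0.5 in size were those of Psmb9 (0.89, SE 0.782, adjusted p = 0.864), Tap2 (-0.76, SE 0.384, adjusted p = 0.618) and Psmb8 (0.70, SE 0.390, adjusted p = 0.672). Of the 52 pathway genes, 0 passed with edgeR (8 at an unadjusted p under 0.05) and 1 each with DESeq2 and limma-voom. The comparisons share libraries, so these values are not independent of those above.

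The immunoproteasome share of catalytic subunit CPM per kilobase was 68.4%, 71.1% and 73.6% in MFL NK, 57.5%, 69.3% and 71.3% in LM NK, 78.5%, 81.2% and 77.6% in MFL ILC1 and 72.9%, 75.5% and 82.2% in LM CD49a+ NK. The MFL ILC1 mean was 79.1% ± 1.88 and the MFL NK mean 71.1% ± 2.63 (SD, n = 3), with no overlap of libraries. Both parts of the share moved. The 3 immunoproteasome subunits were higher in MFL ILC1 (median log2 difference 0.43), each with overlapping libraries, and the 3 constitutive subunits were lower (median -0.26). None of these passed. LM CD49a+ NK (76.8% ± 4.80) lay above LM NK (66.1% ± 7.50) in every library as well, and overlapped with MFL NK and with MFL ILC1. LM NK and MFL NK overlapped, and the first LM NK library, at 57.5%, was the lowest of the 12. As in MAMs, 3 libraries against 3 cannot give an exact p below 0.1.

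**Figure D4:**
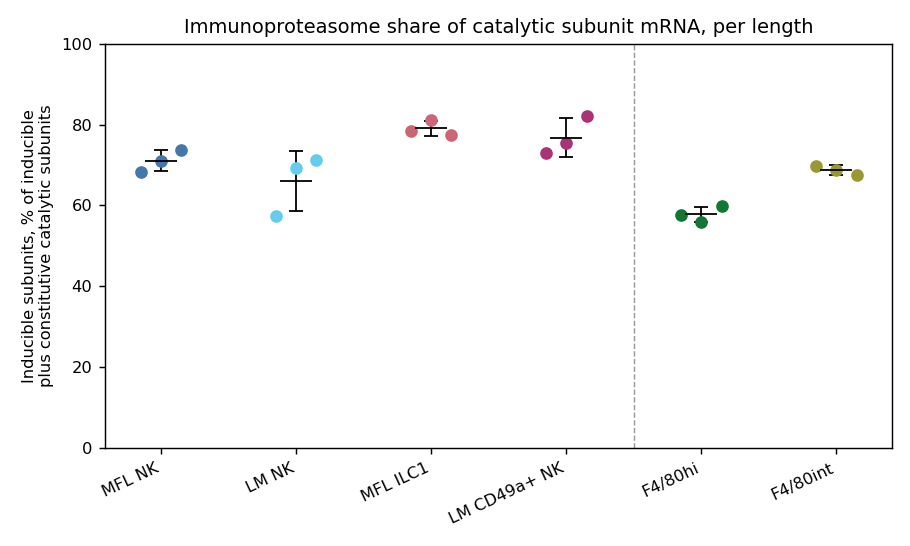
Percent of the CPM per kilobase of the 6 catalytic proteasome subunits that came from Psmb8, Psmb9 and Psmb10, 1 point per library with the population mean and bars of 1 SD, lymphocytes left and MAMs right of the dashed line. F4/80hi lies below F4/80int without overlap, and MFL ILC1 lies above MFL NK without overlap.

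The mean profile of the 10 genes over the 4 lymphocyte populations, each gene centred on its own mean log2 CPM, was -0.22 in MFL NK, -0.19 in LM NK, 0.16 in MFL ILC1 and 0.25 in LM CD49a+ NK. Single genes strayed widely from it. The population means of Psmb9 spanned 1.44, those of Psmb10 0.98, of Psmb8 0.95, of Nlrc5 0.84 and of Tap2 0.72 on the log2 scale. The mean profile was set against 8269 genes other than these 10, each with a mean of at least 10 CPM. By the smallest Euclidean distance over the 4 population means, the nearest were Alkbh5 (0.0395), Mettl13 (0.0626), Mettl5 (0.0724), Avl9 (0.0755) and Rragc (0.0784).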

How the data were processed

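Bulk RNA-seq libraries of 4 lymphocyte and 2 macrophage populations, 3 each, were analysed from deposited gene tables of estimated counts, which the authors made and which hold whole numbers. Per the labels and methods, reads were trimmed with Trim Galore and quantified with Salmon (1.5.0 for lymphocytes, 1.10.0 for MAMs) on GRCm39. The macrophage annotation version was not given in the sources used here. The macrophage table starts at a row total of 37, so rows with fewer counts could not be tested. Kits were stranded total RNA for lymphocytes and poly(A)-selected for MAMs.

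Versioned Ensembl identifiers were matched to symbols for 53700 of 54309 and 13726 of 13759 rows. Each table was fitted apart with edgeR 4.0.16 (TMM scaling, filterByExpr, quasi-likelihood test, R 4.3.3), over all 12 lymphocyte or all 6 MAM libraries. p-values were adjusted by Benjamini-Hochberg over all genes tested (13594 and 13759), and genes with adjusted p under 0.1 were called. SE is the absolute log2 difference divided by the square root of F. The script was tested on simulated data with known changes in genes drawn from all those tested. For LM CD49a+ NK against MFL NK it called 0 of 67 genes changed 1.5-fold, 1 of 67 changed 2-fold and 21 of 66 changed 4-fold. For F4/80hi against F4/80int it called 25 of 67, 42 of 67 and 62 of 66. For genes drawn from all those tested, most changes of 2-fold or less would thus be missed in that lymphocyte comparison. The simulation gave no separate rate for the 10 genes, whose SE there ran from 0.217 to 0.557. Alternatives were relative log expression scaling, no filter, DESeq2 1.42.0, limma 3.58.1 voom with quality weights, fits of only the groups compared, a replicate block, and each library left out in turn. All 10 genes were named in every comparison. From the other lists, called genes were named, at most 3 with the largest change in each direction, and the 5 genes nearest in profile. The values of 1 gene that this rule names are not reported here. The genes and lists were chosen with earlier results of these data known. Per the methods, the lymphocyte pools came from 3 separate sorts. For MAMs the sources used here do not say whether the 3 libraries of a group came from separate mice, so their p-values measure only the spread between these libraries. Gene positions and transcript lengths came from a GENCODE annotation of GRCm39, and start windows from RefSeq on GRCm38.p6. No coordinates were converted between the builds.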

Additional observations from a re-analysis of the deposited data

How the results depend on the processing

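In MAMs, the 10 genes under 10 alternatives gave 100 values, of which 100 were lower in F4/80hi and 91 passed, with B2m past the threshold only with DESeq2. In lymphocytes, 53 of 1070 values changed sign, in 21 of 60 results, the largest of which was 0.43 as reported, so the signs of small lymphocyte differences are not fixed by these libraries. Calls among the 10 genes rose from 0 to 1 in LM CD49a+ NK against MFL NK with voom, to 1 in LM CD49a+ NK against LM NK without the filter and with DESeq2 (Psmb8), to 1, 1, 6 and 2 in MFL ILC1 against MFL NK without the filter, with DESeq2, with voom and with only those groups, to 0 to 1 there when a library was left out (1, Nlrc5, without LM NK replicate 1 or 2), and to 1 in LM CD49a+ NK against MFL ILC1 with voom (Nlrc5). The causes were not tested.

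Calls over all genes moved more. LM NK against MFL NK had 10, then 158 without the filter, 161 with DESeq2, 104 with voom, 3 with only those groups, and 1 to 110 when a library was left out. LM CD49a+ NK against MFL NK had 88, then 371, 365 and 307 without the filter, with DESeq2 and with voom, and 26 to 168. LM CD49a+ NK against LM NK had 19, then 200, 543, 0 and, with only those groups, 3, and 5 to 267. MFL ILC1 against MFL NK had 416, then 667 with DESeq2, 2645 with voom, 1228 with only those groups, and 268 to 562. LM CD49a+ NK against MFL ILC1 had 486, then 774, 1010 and 935, and 257 to 708.

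Log2 differences that changed sign were, for LM NK against MFL NK, Tapbp (-0.0896 with voom), Tap2 (-0.14 with voom) and Psmb10 (0.0283 with relative log expression scaling and 0.0285 with DESeq2), for LM CD49a+ NK against MFL NK, Nlrc5 (-0.003 with voom), for LM CD49a+ NK against MFL ILC1, H2-D1 (-4e-04 with voom), and for the interaction, Tapbp (0.0704 with the replicate block, 0.0917 with voom) and B2m (-0.0485 with relative log expression and with DESeq2, -0.023 without the filter, -0.0165 with voom, -0.0126 with the block). With a library left out, they ran, for LM NK against MFL NK, from -0.41 to 0.47 (Tapbp), -0.35 to 0.22 (Tap2), -0.22 to 0.21 (Psmb10), -0.0544 to 0.31 (Tap1) and -0.0444 to 0.30 (B2m). For LM CD49a+ NK against MFL NK, Tap2 ran from -0.25 to 0.0102. For LM CD49a+ NK against LM NK, the ranges were -0.35 to 0.22 (Tap2), -0.19 to 0.10 (H2-K1), -0.0996 to 0.0176 (H2-D1) and -0.38 to 0.12 (Nlrc5). For MFL ILC1 against MFL NK, they were -0.044 to 0.26 (Tap1), -0.0773 to 0.17 (H2-D1) and -0.0017 to 0.81 (Psmb9). For LM CD49a+ NK against MFL ILC1, they were -0.0515 to 0.24 (Tapbp), -0.13 to 0.0529 (H2-K1), -0.0343 to 0.19 (H2-D1) and -0.0977 to 0.0508 (heavy chain sum). For the interaction, they were -0.35 to 0.54 (Tapbp), -0.0031 to 0.36 (Tap1), -0.15 to 0.19 (B2m) and -0.21 to 0.0435 (H2-D1).

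Replicate numbers were not shown to pair the libraries, and with 3 libraries a group this check cannot show that they were unpaired. Deviations of same-numbered libraries correlated at -0.05 to 0.10 over 18 lymphocyte pairs and at -0.02 to 0.17 over 3 MAM pairs, with more than 0.1 needed in every pair. The replicate block changed no call among the 10 genes.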
